A study of Rattus norvegicus with 48 samples.

Results

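KRT-19-positive preneoplastic nodules of rat liver taken after 4 d of triiodothyronine (T3) were set against untreated KRT-19-negative nodules, to ask whether the treated nodules resembled the untreated type that lacks keratin 19. The comparison used 20 of 48 arrays, chosen by their titles alone: 10 of KRT-19-positive nodules with T3 for 4 d and 10 of KRT-19-negative nodules without T3. The remaining arrays held KRT-19-positive nodules with T3 for 2 d (10), untreated KRT-19-positive nodules (10) and control liver (8), and they entered the model for its estimate of spread and as reference points. All samples were liver tissue of male Fischer rats. The labels give neither the dose and route of T3, nor the age of the rats, nor how the nodules were induced. Nor do they tell if each array stands for another animal. The p-values here therefore measure the spread between these samples, which may in part be technical. No array held KRT-19-negative nodules under T3. T3 and nodule type therefore cannot be told apart in this comparison. Below, a rise or fall is a difference from KRT-19-negative nodules, not a change from untreated KRT-19-positive nodules.

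Preneoplastic nodules are foci of altered hepatocytes that precede liver cancer in rat models. Keratin 19 is a filament protein of bile ducts and hepatic progenitor cells, and its presence marks a less differentiated type of nodule. T3 enters the nucleus and binds the receptors encoded by Thra and Thrb, which sit on DNA and switch target genes on or off. In rat liver T3 is known for raising mitochondrial respiration, lipid turnover and hepatocyte proliferation.

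Levels are log2 intensities after background correction and quantile normalisation, and levels of different genes are not compared, since each probe has its own brightness. Between 8838 and 10379 of 22523 probes were detected per array in T3 4 d nodules, against 8380 to 10417 in KRT-19-negative nodules. The hepatocyte product albumin (Alb) was bright in both groups, with medians of 14.66 in T3 4 d and 14.83 in KRT-19-negative nodules, close to the ceiling of 15.27. Krt19 itself had a median of 11.65 in untreated KRT-19-positive nodules and 8.56 in KRT-19-negative nodules, in the direction of the labels. Arrays within a group were not equally alike. Among T3 4 d arrays the root mean square (RMS) difference between pairs ran from 0.33 to 0.71 log2 with a median of 0.44. Arrays 1 and 3 were each other's nearest array at 0.35 and lay 0.55 to 0.71 from arrays 2, 4, 5, 6, 7 and 10. Arrays 8 and 9 were likewise each other's nearest, also at 0.35. Among KRT-19-negative arrays the differences ran from 0.32 to 0.74 with a median of 0.58, and arrays 6, 7 and 8 formed the closest set. Whether such sets share an animal was not tested, and no label gives it. Between arrays with low and high title numbers (1 to 5 and 6 to 10 in groups of 10) limma called 238 features in KRT-19-negative, 694 in untreated KRT-19-positive and 28 in control samples, and 0 in T3 4 d and T3 2 d nodules, where 524 and 570 had an unadjusted p under 0.05. No label says what the numbers mark.

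The treated nodules reached the level of the KRT-19-negative type along the axis that separates the untreated nodule types, and they also differed from it in other directions. That axis was drawn as a line over all 11558 features, from the mean KRT-19-positive profile (position 0) to the mean KRT-19-negative profile (position 1), each array being left out of its own group's mean. T3 4 d nodules had positions of 0.41 to 1.13 with a median of 1.05, and KRT-19-negative nodules had 0.40 to 1.36 with a median of 0.96. Untreated KRT-19-positive nodules lay from -0.32 to 0.28 and control livers from 1.34 to 1.55. The mean positions, 0.89 ± 0.28 in T3 4 d and 0.93 ± 0.27 in KRT-19-negative nodules (SD, n = 10 each), differed by less than the spread within either group. Treated arrays 1, 3, 8 and 9 lay lowest, at 0.41, 0.47, 0.71 and 0.80, and the other 6 lay between 1.03 and 1.13. Without arrays 1 and 3 the mean was 1.00.

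Distance from the line was 0.58 to 0.72 (RMS, log2) for T3 4 d arrays and 0.29 to 0.55 for KRT-19-negative arrays. The line runs through the KRT-19-negative mean, so arrays of that group lie near it by construction. Groups that did not set the line lay at 0.45 to 0.51 (T3 2 d) and 0.48 to 0.59 (control liver), and the control range overlaps that of T3 4 d. Every T3 4 d array was nearest to the mean of its own group. The RMS difference between group means was 0.55 from T3 4 d to T3 2 d and 0.56 from T3 4 d to KRT-19-negative nodules. From T3 4 d it was 0.70 to untreated KRT-19-positive nodules and 0.59 to control liver. From KRT-19-negative nodules it was 0.43 to control liver, 0.47 to untreated KRT-19-positive and 0.55 to T3 2 d nodules. By this measure T3 4 d nodules were no nearer to the KRT-19-negative mean than T3 2 d nodules were. KRT-19-negative array 9 lay at 0.40 and was nearer to the mean of KRT-19-positive nodules than to that of its own group.

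**Figure D1:**
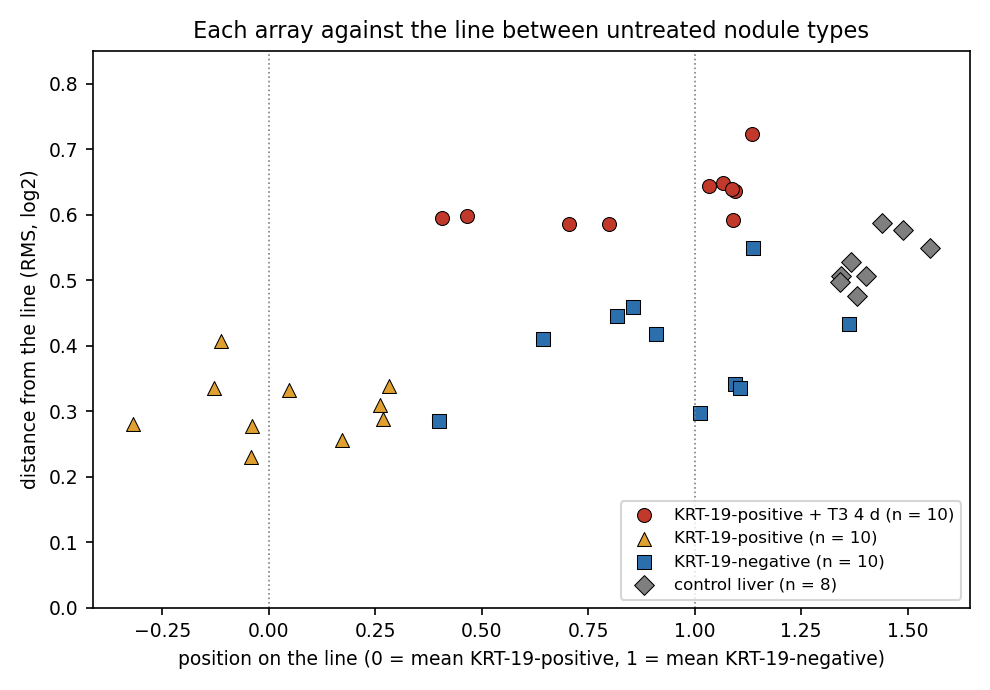
Position of each array on the line from the mean KRT-19-positive to the mean KRT-19-negative profile (x axis, no unit) against its RMS distance from that line in log2 (y axis). Each point is 1 array. T3 4 d arrays share the range of positions of KRT-19-negative arrays but all lie at 0.58 or more from the line, above every KRT-19-negative array.

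Across features, 5376 of 11558 (46.5%) differed between T3 4 d and KRT-19-negative nodules at a Benjamini-Hochberg adjusted p under 0.05 in limma, 2769 higher (24%) and 2607 lower (22.6%). A change of 2-fold or more was found for 808 of them (6.99%). The groups did not overlap for 1107 features (9.58%). For 9632 features (83.3%) the 95% interval of the difference lay within 2-fold in either direction, and 6083 of these (52.6% of all features) were not called. By the same rule 3706 features (32.1%) differed between untreated KRT-19-positive and KRT-19-negative nodules, 534 of them by 2-fold or more (4.62%). That contrast shares the KRT-19-negative arrays, so its values are given only side by side. The median size of the difference was 0.29 log2 for T3 4 d minus KRT-19-negative and 0.21 for KRT-19-positive minus KRT-19-negative. For 255 features (2.21%) all 10 T3 4 d arrays exceeded all 28 untreated arrays, control liver included, and for 112 (0.969%) all 10 lay below them.

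Without KRT-19-negative array 3, which had the lowest Gstp1 of its group at 9.25 against 13.72 for the next, 5209 features were called, of which 5038 were called in the same direction with all arrays. No call changed direction. Without T3 4 d arrays 1 and 3, a choice made after the data were seen, 5258 were called and 4939 of them were shared.

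Among 28 gene lists, thyroid hormone targets had the highest median difference in the fit described here (1.15), followed by the respiratory chain (0.63) and DNA replication (0.59), and NRF2 targets had the lowest (-0.59). By the share of members called higher the order was the respiratory chain (97%), thyroid hormone targets (83.3%), the tricarboxylic acid cycle (72.2%) and DNA replication (67.7%). Over the alternatives the DNA replication median ran from 0.28 to 0.79. The lists were chosen with earlier results of these data known, so their counts are descriptions to be read beside the shares over all features, 24% higher and 22.6% lower, and a median difference of 0.00 over all features.

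**Figure D2:**
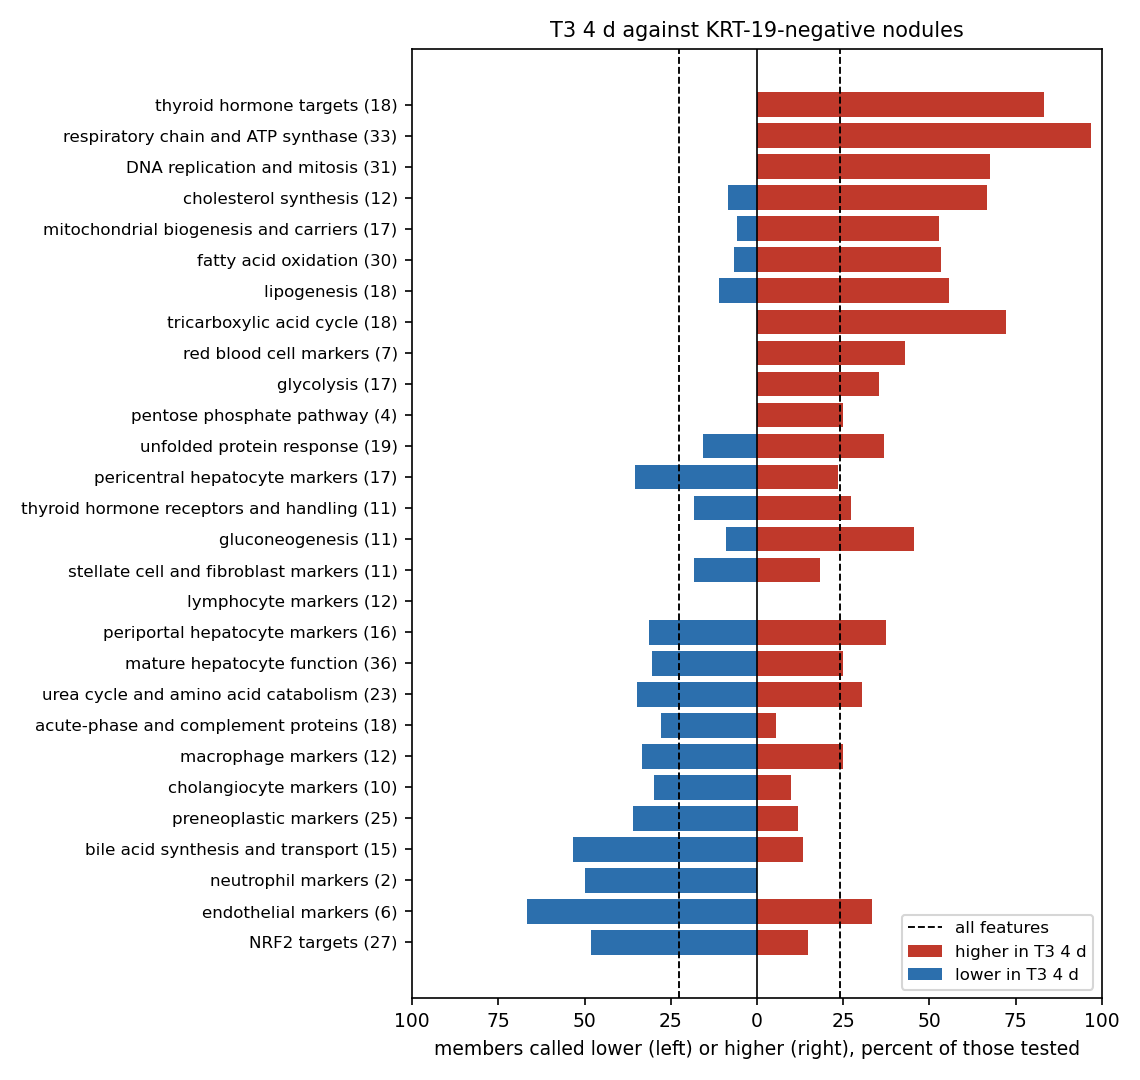
Share of each list's tested members (number in brackets) called higher (right, red) or lower (left, blue) in T3 4 d than in KRT-19-negative nodules, in percent, sorted by median difference. Dashed lines mark the shares over all features, 24% higher and 22.6% lower. In the respiratory chain 32 of 33 members were higher, and among NRF2 targets 13 of 27 were lower.

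Markers of preneoplastic change were sorted into 3 classes: not called against KRT-19-negative nodules, called lower, or called higher in treated nodules. Of 25 tested, 48% were called, against 46.5% of all features. A missing call does not show likeness, and 10 of the 25 had a 95% interval within 2-fold. Krt19 was not called. Its level ran from 7.47 to 8.77 with a median of 7.92 in T3 4 d nodules, and from 6.06 to 10.09 with a median of 8.56 in KRT-19-negative nodules. All 10 treated arrays lay within the KRT-19-negative range. The mean was 8.03 ± 0.44 in T3 4 d and 8.37 ± 1.54 in KRT-19-negative nodules (SD, n = 10 each), a difference of -0.34 log2 with a 95% interval of -1.11 to 0.42 (adjusted p = 0.48, limma), and the interval reaches past a 2-fold fall. KRT-19-positive minus KRT-19-negative was 3.45, a contrast on the gene that names the groups.

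Akr1b8, a rat aldo-keto reductase that reduces aldehydes, and Gsta3, a glutathione transferase that detoxifies aflatoxin, also did not pass the test. Akr1b8 ran from 6.48 to 12.27 with a median of 8.38 in T3 4 d nodules, and from 5.97 to 12.15 with a median of 10.30 in KRT-19-negative nodules. The treated arrays 1, 3, 8 and 9 were its highest, at 10.61 to 12.27, and the other 6 stayed under 8.49. Its difference of -0.82 (interval -1.95 to 0.32, adjusted p = 0.24) became -1.26 without KRT-19-negative array 3 (adjusted p = 0.0433) and -1.58 without T3 4 d arrays 1 and 3 (adjusted p = 0.0102). KRT-19-negative array 3 held the lowest Akr1b8 of its group (5.97), and T3 4 d arrays 1 and 3 the highest treated levels (12.27 and 12.05). A larger fall therefore follows from either choice. Gsta3 differed by 0.22 (interval -0.43 to 0.87, adjusted p = 0.598). The difference for alpha-fetoprotein (Afp), a secreted protein of fetal liver, was -0.10 (interval -0.38 to 0.17, adjusted p = 0.567). Afp was higher in control liver (10.13 to 10.74) than in untreated KRT-19-positive nodules (8.76 to 9.77), so it did not mark those nodules here. Cd44, a hyaluronan receptor of progenitor cells, differed by -0.40 (adjusted p = 0.0741). Leaving out T3 4 d array 1 or 8, or KRT-19-negative array 1 or 8, brought the adjusted p to at most 0.0384. These were the highest treated arrays for Cd44 (6.15 and 5.94) and the lowest KRT-19-negative ones (4.71 and 4.88). A larger fall therefore follows from leaving them out. Cd44 lay near background and was undetected on some arrays of both groups.

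Several markers lay below the KRT-19-negative level. Gstp1, the placental glutathione transferase used to stain such nodules in rats, ran from 9.36 to 14.50 with a median of 10.48 in T3 4 d nodules, and from 9.25 to 15.18 with a median of 14.22 in KRT-19-negative nodules. The treated arrays formed a high set (1, 3, 8 and 9, 12.95 to 14.50) and a low set (the other 6, 9.36 to 10.56). All KRT-19-negative arrays but array 3 stood at 13.72 or more. The difference was -2.35 ± 0.50 (SE, adjusted p = 1.09e-04), and -2.86 without array 3, which was left out for its low Gstp1, so that a larger fall follows from the choice. A second Gstp1 probe gave -3.21. With arrays 1 to 5 of each group alone, which hold T3 4 d arrays 1 and 3, the difference was -1.51 and was not called (adjusted p = 0.156), and with arrays 6 to 10 alone it was -3.19. Against control liver Gstp1 stayed higher in T3 4 d nodules, by 3.75.

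Abcc3, an export pump for organic anions, ran from 6.53 to 11.03 with a median of 7.44 in T3 4 d nodules, and from 7.39 to 11.64 with a median of 11.15 in KRT-19-negative nodules. Treated arrays 1, 3, 8 and 9 stood at 10.02 to 11.03 and the other 6 at 6.53 to 7.50. It differed by -2.41 (adjusted p = 8.24e-06). Akr7a3, an aflatoxin aldehyde reductase, ran from 9.83 to 12.36 with a median of 10.32 in T3 4 d nodules, and from 10.31 to 13.93 with a median of 13.48 in KRT-19-negative nodules, a difference of -2.39 (adjusted p = 1.98e-09). Here too arrays 1, 3, 8 and 9 were the highest treated arrays (11.34 to 12.36). For both genes KRT-19-negative array 3 was the lowest of its group, and without it the differences were -2.79 and -2.71. Gpx2, an epithelial glutathione peroxidase, differed by -1.33 (adjusted p = 0.00123), and the epithelial adhesion molecule Epcam by -0.79 (adjusted p = 1.93e-04). Defb1, a defensin, was detected on 4 of 10 T3 4 d arrays and 8 of 10 KRT-19-negative arrays. The 4 were again arrays 1, 3, 8 and 9. Its difference of -2.01 (adjusted p = 0.0139) was not called in a fit to the groups compared alone (adjusted p = 0.0911).

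Of 25 preneoplastic markers that passed the filter on dim probes (26 on the array), 9 fell, 3 rose and 13 were not called, with a median difference of -0.35. The risers were Ccn2 (connective tissue growth factor, a target of YAP) at 1.46, Prom1 (CD133, a stem cell surface protein) at 0.87 and Akr1b10 at 0.68, whose call was lost on leaving out T3 4 d array 1, 3 or 9 or KRT-19-negative array 6, 7 or 8. Ccn2 did not overlap between groups, with 10.44 to 11.48 in T3 4 d nodules and 8.92 to 9.93 in KRT-19-negative nodules. Untreated KRT-19-positive nodules had 9.89 to 10.88 for Ccn2. Akr1b10 ran from 5.6 to 7.9 in those nodules and from 5.1 to 7.1 in T3 4 d nodules. The median over the same members was 1.14 for KRT-19-positive minus KRT-19-negative, and 1.53 for T3 4 d minus control.

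**Figure D3:**
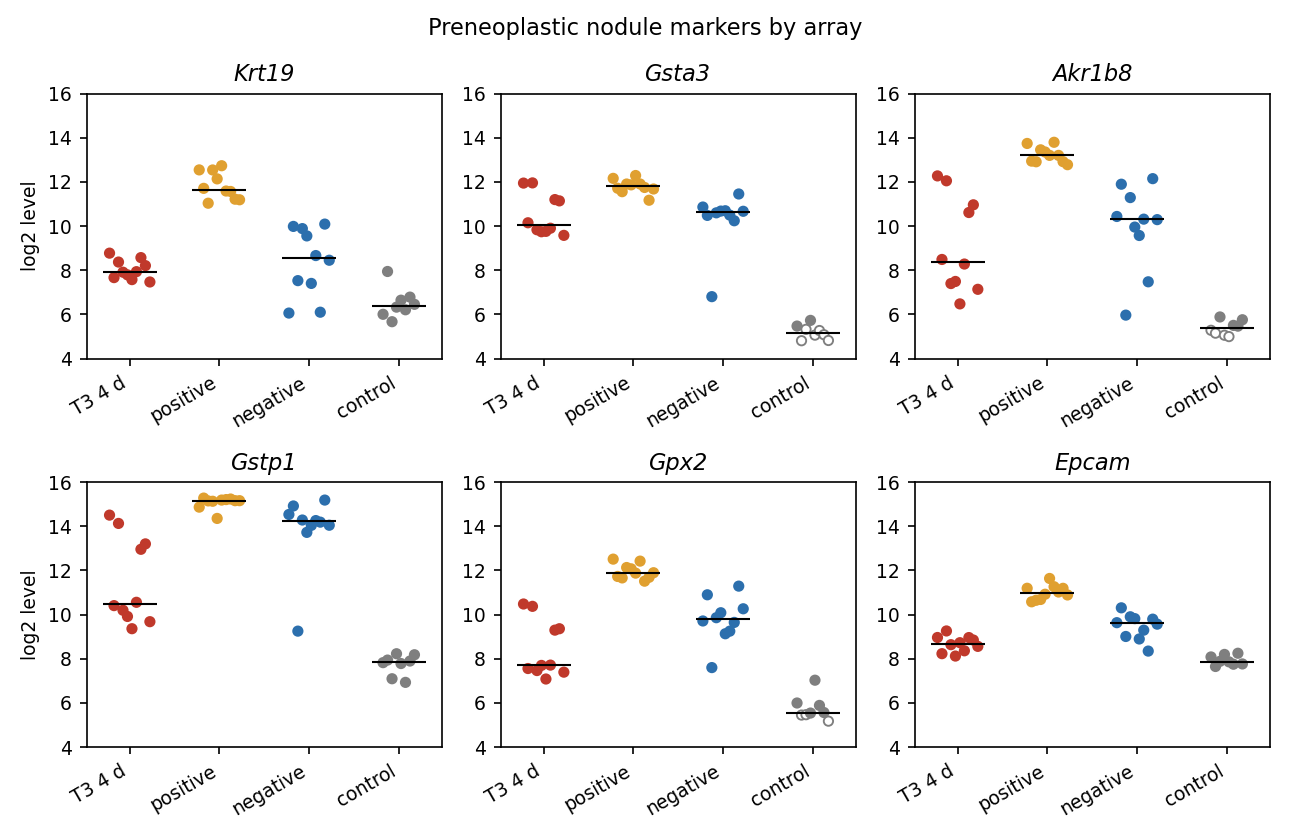
Log2 level (y axis) of 6 preneoplastic markers on each array, with T3 4 d, untreated KRT-19-positive, KRT-19-negative and control groups along the x axis; lines are medians and open points are arrays where the probe was not detected. Krt19 of all 10 treated arrays lies within the KRT-19-negative range, and Gstp1 of 6 treated arrays lies between 9.36 and 10.56, below 9 of the 10 KRT-19-negative arrays.

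NRF2 is a transcription factor that switches on detoxification genes and is commonly active in rat nodules. Of 27 of its targets that passed the filter (28 on the array), 13 fell, 4 rose and 10 were not called, with a median difference of -0.59. The members overlap with the preneoplastic list (Gstp1, Akr7a3, Abcc3, Gpx2). Nqo1, a quinone reductase, ran from 9.43 to 12.00 with a median of 9.83 in T3 4 d nodules, and from 10.65 to 13.14 with a median of 11.91 in KRT-19-negative nodules, a difference of -1.40 (adjusted p = 1.57e-05). Gsta2, a glutathione transferase, differed by -1.59 (adjusted p = 1.96e-11). The 4 that rose were malic enzyme Me1 at 3.16, Gsta1 at 1.69, the carbonyl reductase Cbr1 at 0.96 and heme oxygenase Hmox1 at 0.43. Over the alternatives 7 to 15 members were lower and 2 to 5 higher. The linear intensities of the list summed to 114492 to 176785 on treated arrays 1, 3, 8 and 9 and to 66851 to 76863 on the other 6, against 62361 to 230841 with a median of 150234 in KRT-19-negative nodules. Over the same members the median of KRT-19-positive minus KRT-19-negative was 1.23.

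The 8 largest rises measured 2.99 to 4.91 log2, and for 7 of them every treated array lay above every untreated array. Acot5, a peroxisomal thioesterase that releases fatty acids from coenzyme A, ran from 9.92 to 10.96 with a median of 10.51 in T3 4 d nodules, and from 4.72 to 5.98 with a median of 5.61 in KRT-19-negative nodules. The difference was 4.91 ± 0.20 (SE, adjusted p = 2.16e-26). Its size rests on KRT-19-negative signal near background, undetected on arrays 1, 5 and 10 of that group. The lowest difference over the alternatives was 3.30. Mmd2, a membrane protein of the progestin and adipoQ receptor family, differed by 4.52, and was detected on 10 T3 4 d arrays and 2 KRT-19-negative arrays. Trim36, a ubiquitin ligase, differed by 3.51, and Akr1b7, an aldo-keto reductase, by 3.45. Akr1b7 was detected on 1 of 10 KRT-19-negative arrays, its difference was 1.87 with the deposited normalised values, and among treated arrays it was highest on 1, 3, 8 and 9 (9.60 to 10.45, against 6.83 to 7.57 on the other 6). Me1, which makes NADPH for fat synthesis, ran from 11.98 to 12.83 with a median of 12.55 in T3 4 d nodules, and from 7.35 to 10.61 with a median of 9.54 in KRT-19-negative nodules. Its difference was 3.16 (adjusted p = 1.73e-17). Pdp2, which activates pyruvate dehydrogenase, differed by 3.05, and Gpd2, the mitochondrial glycerol phosphate dehydrogenase and a classic T3 target in rat liver, by 2.99. For Acot5, Mmd2, Trim36, Akr1b7, Me1, Pdp2 and Gpd2 every treated array lay above every untreated array of the series. Slc25a30, a mitochondrial carrier, differed by 3.02 and overlapped on 1 treated array. Of its other probes, one gave 2.72 and another 0.01.

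The 250 bases before the RefSeq transcription start were read for the largest changes, 6 of 8 rises and all 8 falls having an entry (build GRCr8), because nuclear receptors such as those for T3 bind the hexamer AGGTCA. The hexamer, searched on both strands, was in 2 of 6 windows among the rises, in 4 of 8 among the falls and in 3765 of 27457 windows of all genes (13.7%). Of the direct repeat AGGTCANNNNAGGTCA there was no match in either set, and 1 among all genes. The windows of Acot5 (chr6:109432812-109433061, plus strand), of Akr1b7 (chr4:64043720-64043969, plus strand) and of Stac3, the largest fall (chr7:65228225-65228474, plus strand), are shown with the hexamer, on either strand, in capitals.
Acot5: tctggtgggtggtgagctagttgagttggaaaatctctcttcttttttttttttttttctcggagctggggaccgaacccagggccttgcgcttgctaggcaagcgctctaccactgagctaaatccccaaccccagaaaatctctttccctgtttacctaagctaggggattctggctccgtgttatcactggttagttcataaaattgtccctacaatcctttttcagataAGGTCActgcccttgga
Akr1b7: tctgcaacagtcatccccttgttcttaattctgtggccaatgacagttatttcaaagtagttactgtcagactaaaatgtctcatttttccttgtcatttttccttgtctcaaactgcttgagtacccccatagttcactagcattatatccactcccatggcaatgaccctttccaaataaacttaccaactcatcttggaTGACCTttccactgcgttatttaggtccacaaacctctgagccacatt
Stac3: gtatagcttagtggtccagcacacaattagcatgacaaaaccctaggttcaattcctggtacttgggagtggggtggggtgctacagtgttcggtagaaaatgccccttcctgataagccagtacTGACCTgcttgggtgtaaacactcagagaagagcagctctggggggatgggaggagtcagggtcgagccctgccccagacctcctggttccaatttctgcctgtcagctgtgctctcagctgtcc

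**Figure D4:**
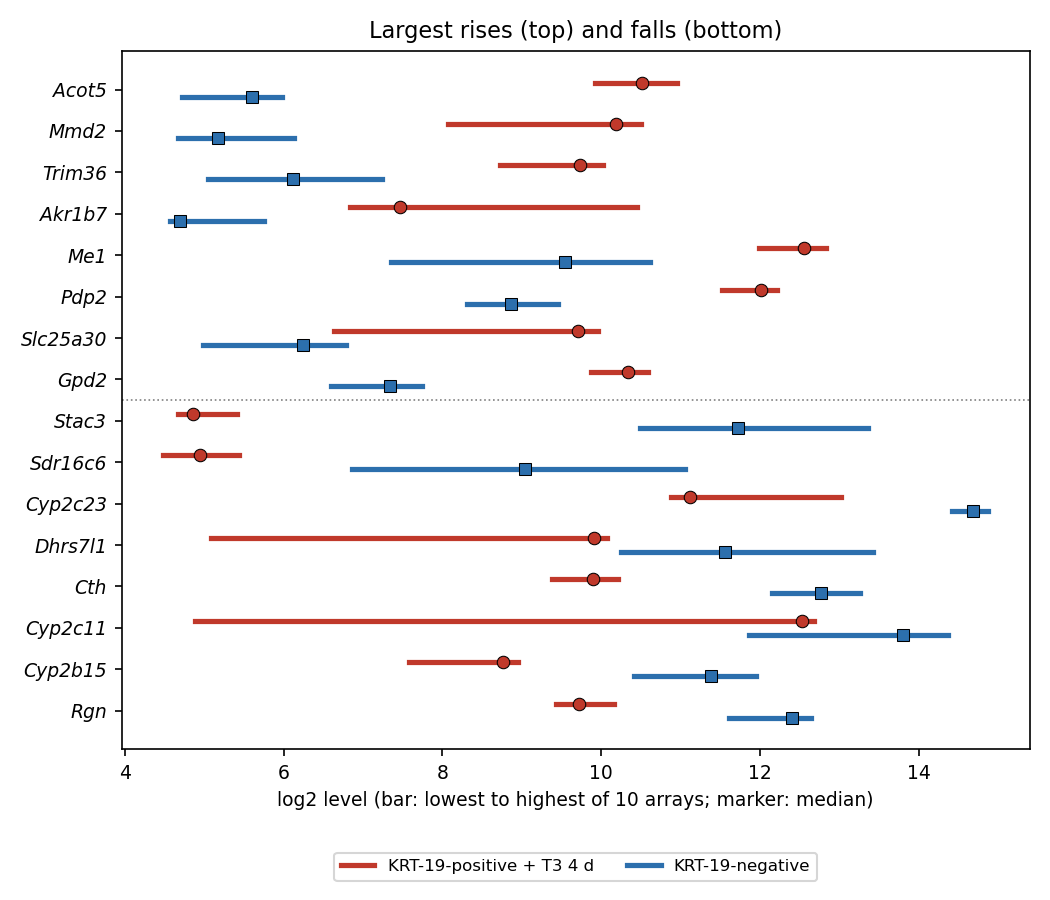
Log2 level (x axis) of the 8 genes with the largest rise (top) and the 8 with the largest fall (bottom) in T3 4 d against KRT-19-negative nodules. Bars run from the lowest to the highest of 10 arrays and markers are medians; T3 4 d is drawn above KRT-19-negative for each gene. Slc25a30 and Cyp2c11 overlap between groups, and the others do not.

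Known T3 targets were higher in treated nodules. Of 18 that passed the filter (21 on the array) 15 rose, 0 fell and 3 were not called (Cyp7a1, Slc16a6 and Idh3a), with a median difference of 1.15, against -0.46 for KRT-19-positive minus KRT-19-negative. Dio1, the deiodinase that converts thyroxine to T3, ran from 14.50 to 14.78 with a median of 14.59 in T3 4 d nodules, and from 11.91 to 12.77 with a median of 12.32 in KRT-19-negative nodules, a difference of 2.31 (adjusted p = 3.21e-22). Every treated array lay above every untreated one. Abcg5, a sterol exporter, differed by 1.91, and Pdk4, an inhibitor of pyruvate dehydrogenase, by 1.77. Fgf21, a fasting hormone of liver, differed by 1.50 with overlap, and Atp1b1, a sodium pump subunit, by 1.40. Thrsp (Spot14), a lipogenic regulator, was near the ceiling in both groups and differed by 0.46 (adjusted p = 0.0061), and it was not called with cyclic loess (0.22) or median scaling (0.23). The gene of the mitochondrial coactivator PGC-1 alpha, Ppargc1a, was not above background on any KRT-19-negative array and was detected on 9 of 10 T3 4 d arrays, at least 1.45-fold higher (adjusted p = 9.01e-12), a bound taken from the lowest detected signals.

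Neither receptor gene passed the test with all arrays. Thra differed by 0.25 (interval -0.07 to 0.57, adjusted p = 0.193, and 0.65 with arrays 1 to 5 of each group alone, adjusted p = 0.0212) and Thrb by 0.10 (interval -0.19 to 0.39, adjusted p = 0.585). Among 11 genes of receptors, transporters, deiodinases and cofactors (13 on the array), 3 rose (Dio1, the mediator subunit Med1 at 0.60 and the corepressor Ncor1 at 0.41) and 2 fell. One of the 2 was Rxrb, a retinoid X receptor that pairs with T3 receptors, at -0.41, and the other was lost on leaving out single arrays, T3 4 d array 2 among them.

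The respiratory chain was higher as a whole in treated nodules. Of 33 nuclear genes of its complexes and of ATP synthase that passed the filter (34 on the array), 32 rose and 0 fell, with a median difference of 0.63. For 18 of them the groups did not overlap, all higher, against 5.33% over all features. Cycs, cytochrome c, ran from 13.96 to 14.50 with a median of 14.29 in T3 4 d nodules, and from 12.46 to 13.18 with a median of 12.69 in KRT-19-negative nodules, a difference of 1.51 ± 0.07 (SE, adjusted p = 5.78e-23). Uqcrfs1, the iron-sulphur subunit of complex III, differed by 1.27, and the complex I subunits Ndufs1 and Ndufs3 by 1.09 and 1.03. The member not called was Ndufa1, at 0.10 (interval -0.14 to 0.34, adjusted p = 0.525). The median over the same members was 0.00 for KRT-19-positive minus KRT-19-negative and 0.59 for T3 4 d minus control. Over the alternatives 28 to 32 members were higher and 0 lower.

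The tricarboxylic acid cycle moved in the same direction, with 13 of 18 members higher (18 on the array), 0 lower and 5 not called, and a median of 0.36. Citrate synthase (Cs), the entry enzyme, ran from 8.09 to 8.38 with a median of 8.19 in T3 4 d nodules, and from 5.97 to 7.33 with a median of 7.19 in KRT-19-negative nodules, a difference of 1.20. The groups did not overlap, nor did they for Sucla2 (succinyl-CoA ligase, 1.27), Sdhd (complex II anchor, 1.17) and Dld (dihydrolipoamide dehydrogenase, 1.11). Of 17 genes of mitochondrial biogenesis and transport (19 on the array), 9 rose and 1 fell. The adenine nucleotide carrier Slc25a5 ran from 14.15 to 14.45 with a median of 14.24 in T3 4 d nodules, and from 12.79 to 13.57 with a median of 13.05 in KRT-19-negative nodules, a difference of 1.20. The ornithine carrier Slc25a15 differed by 1.33. The citrate carrier Slc25a1, which exports citrate for fat synthesis, was the member that fell, by 0.41 on the log2 scale, with no overlap, and it was not called under median scaling (adjusted p = 0.0559).

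**Figure D5:**
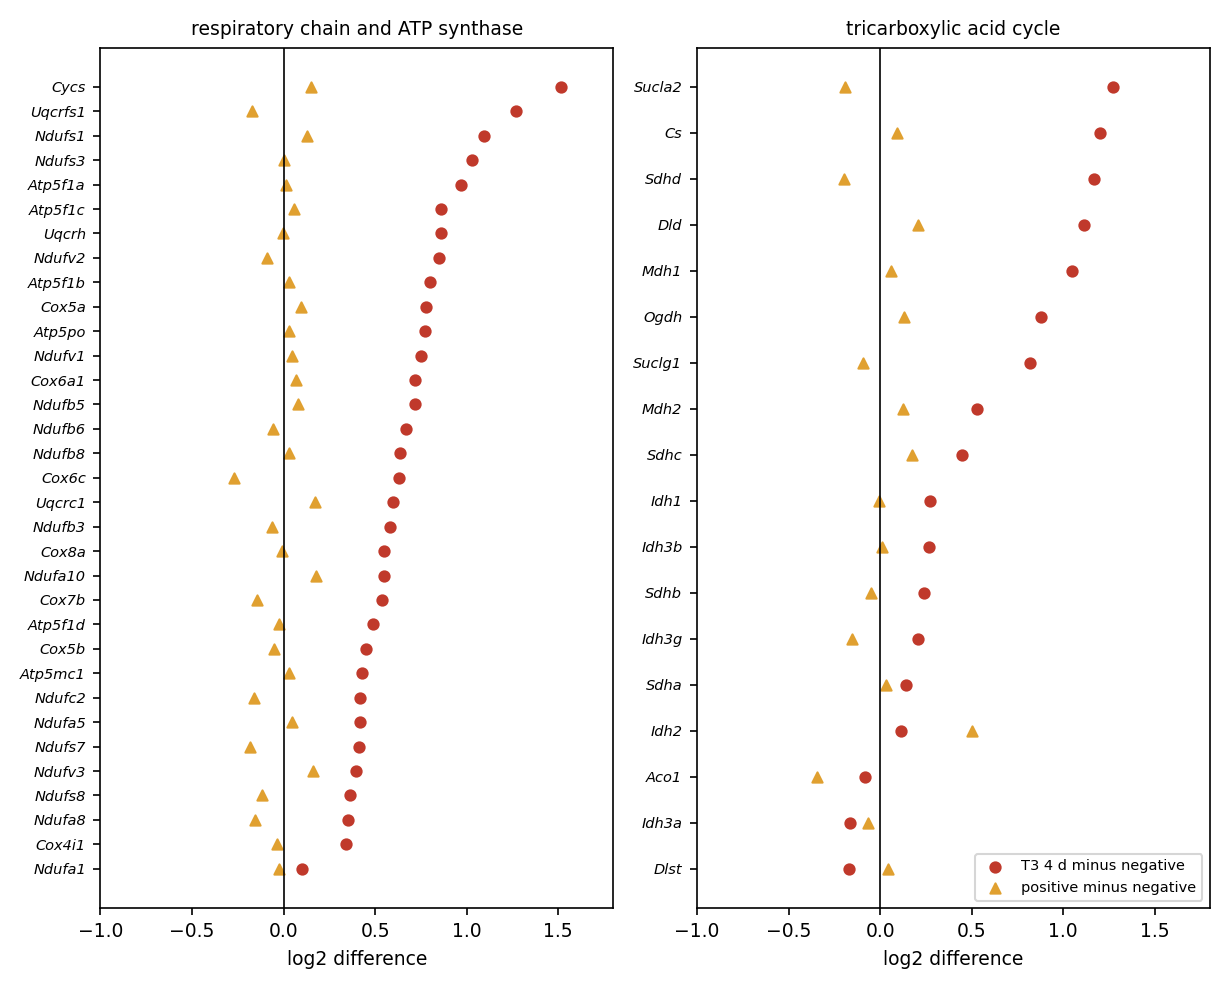
Log2 difference (x axis) of each tested member of the respiratory chain and ATP synthase (left) and of the tricarboxylic acid cycle (right). Circles are T3 4 d minus KRT-19-negative and triangles KRT-19-positive minus KRT-19-negative, which share the KRT-19-negative arrays. Circles reach 1.51 for Cycs and 1.27 for Sucla2, and the triangles of the respiratory chain have a median of 0.00.

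More genes of fatty acid oxidation and fat synthesis rose than fell. Of 30 oxidation genes (30 on the array) 16 rose, 2 fell and 12 were not called, with a median of 0.46. Cpt1a, which passes long-chain fatty acids into mitochondria, ran from 12.42 to 13.37 with a median of 13.15 in T3 4 d nodules, and from 10.98 to 11.76 with a median of 11.59 in KRT-19-negative nodules, a difference of 1.54 (adjusted p = 1.05e-12). Pex11a, a peroxisome division factor, differed by 2.17 and carnitine acetyltransferase Crat by 1.40. Acot1, a cytosolic thioesterase, was not above background on any KRT-19-negative array and was at least 3.14-fold higher in T3 4 d nodules (adjusted p = 5.15e-14). Acaa1a, the peroxisomal thiolase, was lower, at -0.46 with no overlap. Of 18 lipogenic genes (19 on the array) 10 rose and 2 fell, with a median of 0.44. The fatty acid elongases Elovl2 and Elovl5 differed by 2.65 and 2.55, and acetyl-CoA carboxylase Acaca by 1.86, none with overlap. Srebf1, the transcription factor that drives this pathway, was lower, with 10.22 to 10.92 and a median of 10.76 in T3 4 d nodules, and 11.25 to 12.31 and a median of 11.91 in KRT-19-negative nodules, a difference of -1.21 (adjusted p = 1.53e-09).

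Of 12 cholesterol synthesis genes (13 on the array) 8 rose and 1 fell, with a median of 0.51. Among them were Sc5d (1.11) and Dhcr7 (0.85), enzymes of the last steps, and squalene epoxidase Sqle (0.87). Pmvk, phosphomevalonate kinase, was the member that fell, with a difference of -1.09.

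The 8 largest falls had fitted differences of -2.62 to -6.85 log2. Stac3, an adaptor known from skeletal muscle, where it couples excitation to contraction, was detected on 1 of 10 T3 4 d arrays and on all 10 KRT-19-negative arrays. Its level ran from 4.67 to 5.41 with a median of 4.86 in T3 4 d nodules, and from 10.49 to 13.36 with a median of 11.72 in KRT-19-negative nodules, a fitted difference of -6.85 ± 0.31 (SE, adjusted p = 3.04e-24). Its size rests on treated signal near background, and it was -4.79 with the deposited normalised values. Sdr16c6, a short-chain dehydrogenase, was also detected on 1 treated array and differed by -4.26. Cyp2c23, an arachidonic acid epoxygenase, ran from 10.87 to 13.02 with a median of 11.12 in T3 4 d nodules, and from 14.41 to 14.87 with a median of 14.68 in KRT-19-negative nodules, a difference of -2.95. Cth, which makes cysteine from cystathionine, differed by -2.86 and Rgn, regucalcin or gluconolactonase, by -2.62. For Stac3, Cyp2c23, Cth and Rgn every treated array lay below every untreated array of the series. The cytochrome Cyp2b15 differed by -2.72 and Dhrs7l1, a dehydrogenase, by -2.89, without overlap. Cyp2c11, the male-predominant cytochrome of rat liver, ran from 4.89 to 12.68 with a median of 12.52 in T3 4 d nodules, and from 11.86 to 14.36 with a median of 13.79 in KRT-19-negative nodules. It was not detected on treated arrays 1 and 3, and its difference of -2.84 became -1.41 without those arrays (adjusted p = 0.0253).

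Hepatocyte functions did not move as a block. Of 36 mature hepatocyte genes (37 on the array) 9 rose, 11 fell and 16 were not called, with a median of -0.07, against -0.59 for KRT-19-positive minus KRT-19-negative. Alb differed by -0.17 (interval -0.39 to 0.06, adjusted p = 0.231), and was called lower with cyclic loess (-0.53) and median scaling (-0.55). Hnf4a, a transcription factor of hepatocyte identity, differed by -0.35 (interval -0.77 to 0.07, adjusted p = 0.17). Cebpa, another such factor, ran from 9.25 to 10.12 with a median of 9.69 in T3 4 d nodules, and from 6.31 to 9.06 with a median of 8.17 in KRT-19-negative nodules, a difference of 1.52 (adjusted p = 4.73e-07). Cdh17, a cadherin, was higher by 1.66 with overlap. It stood at 8.24 and 8.37 on treated arrays 1 and 3 and at 10.34 to 12.04 on the others. KRT-19-negative nodules had 6.06 to 11.24. Cyp3a2, a steroid hydroxylase, was lower, at -1.49 with no overlap. The leukotriene synthase Ltc4s was lower, at -1.24, detected on 1 treated and 6 KRT-19-negative arrays.

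Of 15 bile acid genes (15 on the array) 8 fell, 2 rose and 5 were not called, with a median of -0.37. Over the same members KRT-19-positive minus KRT-19-negative had a median of -0.99. Cyp7a1, which hydroxylates cholesterol in the step that limits bile acid output, ran from 11.45 to 13.47 with a median of 11.84 in T3 4 d nodules, and from 10.94 to 13.12 with a median of 12.09 in KRT-19-negative nodules. Its difference was 0.12 (interval -0.41 to 0.66, adjusted p = 0.735). Cyp8b1, the sterol 12-hydroxylase, differed by -1.48 (adjusted p = 1.36e-04). Baat, which conjugates bile acids with taurine or glycine, differed by -1.12 and Acox2, which shortens their side chain, by -1.03, both without overlap. The 2 that rose were the uptake carrier Slc10a1 (0.51) and the hydroxylase Cyp27a1 (0.42).

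Amino acid, glucose and zonation lists were mixed. Of 23 urea cycle and amino acid genes (23 on the array) 7 rose and 8 fell. Glutamate dehydrogenase Glud1 was higher by 0.88 with no overlap, and serine dehydratase Sds and histidine ammonia-lyase Hal were lower, at -1.12 and -0.88. Of 11 gluconeogenic genes (11 on the array) 5 rose and 1 fell. G6pc1, the last enzyme of glucose release, ran from 13.44 to 13.83 with a median of 13.64 in T3 4 d nodules, and from 11.73 to 13.25 with a median of 12.67 in KRT-19-negative nodules, a difference of 0.99 (adjusted p = 9.35e-04). The transaminase Got1 differed by 1.22, and the glucose transporter Slc2a2 was the member that fell, at -0.38. Of 17 glycolytic genes (20 on the array) 6 rose and 0 fell, among them Pgk1 (1.13), Ldha (0.82) and Aldoa (0.63). In the pentose phosphate pathway 1 of 4 rose (4 on the array), H6pd at 0.87.

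Pericentral and periportal markers are genes of hepatocytes near the central or the portal vein. Of 17 pericentral markers (18 on the array) 4 rose and 6 fell, and of 16 periportal markers (16 on the array) 6 rose and 5 fell. Rhbg, a pericentral ammonium transporter, ran from 6.23 to 8.58 with a median of 7.08 in T3 4 d nodules, and from 8.82 to 10.46 with a median of 9.81 in KRT-19-negative nodules, a difference of -2.46 (adjusted p = 1.02e-12). Against control liver, which had a median of 7.25, the treated nodules differed by 0.05 (adjusted p = 0.89). Axin2, a Wnt target, was higher by 1.07, and the dicarboxylate carrier Slc13a3 by 1.17. Most KRT-19-negative arrays did not detect Axin2, and its lowest difference over the alternatives was 0.43.

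Replication and mitosis genes were higher in T3 4 d nodules than in KRT-19-negative nodules, with 21 of 31 members risen (35 on the array), 0 fallen and 10 not called, and a median of 0.59. Over the alternatives 18 to 25 rose. Rrm2, the ribonucleotide reductase subunit that limits DNA synthesis, ran from 7.59 to 9.38 with a median of 9.07 in T3 4 d nodules, and from 4.84 to 7.65 with a median of 6.09 in KRT-19-negative nodules, a difference of 2.66 (adjusted p = 3.01e-13). The mitotic kinase gene Cdk1 ran from 7.83 to 9.08 with a median of 8.88 in T3 4 d nodules, and from 4.76 to 8.50 with a median of 6.66 in KRT-19-negative nodules, a difference of 1.88. Treated array 1 lay below the highest KRT-19-negative array in Rrm2, and treated arrays 1, 3 and 9 did so in Cdk1. Aurkb and Bub1, kinases of chromosome segregation, differed by 1.73 and 1.72. Both were undetected on several KRT-19-negative arrays, and their lowest differences over the alternatives were 0.82 and 0.74. The replicative helicase subunit Mcm6 differed by 1.03, and cyclin D1 (Ccnd1), which drives entry into the cycle, by 0.63. Ccnd1 stood at 11.45 to 12.09 on treated arrays 1, 3, 8 and 9. On the other treated arrays it stood at 10.94 to 11.22, within the KRT-19-negative range of 10.05 to 11.38. Untreated KRT-19-positive nodules had 10.98 to 11.83. Stmn1, a microtubule regulator, differed by -0.12 (interval -0.55 to 0.31, adjusted p = 0.676). The median over the same members was 0.48 for KRT-19-positive minus KRT-19-negative and 0.84 for T3 4 d minus control.

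Called genes made up 52.6% of the unfolded protein response list and 33.3% of the acute-phase and complement list, against 46.5% of all features. Of 19 genes of the unfolded protein response (20 on the array) 7 rose and 3 fell. Trib3, a pseudokinase induced by stress, differed by 1.50, the chaperone partner Dnajb9 by 1.02 and Creld2 by 0.99. The stress transcription factor Xbp1 (-0.94) and the protein disulphide isomerase Pdia3 (-0.87) were lower, both without overlap. Of 18 acute-phase and complement genes (19 on the array) 5 fell, 1 rose and 12 were not called. Serpina3n, a protease inhibitor, differed by -1.01 and plasminogen (Plg) by -0.56, both without overlap.

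Summed intensities of red blood cell markers had a higher median, and those of cholangiocyte and macrophage markers a lower median, in T3 4 d than in KRT-19-negative nodules. Such linear sums are carried mostly by the brightest probes of a list. In bulk tissue fewer cells of a type and less RNA per cell cannot be told apart. Of 10 cholangiocyte markers (11 on the array) 3 fell (Epcam, Krt8 at -0.61 and the annexin Anxa4 at -0.82) and 1 rose. The linear intensities of this list summed to 7302 to 20763 with a median of 8066 in T3 4 d nodules, and 10780 to 20991 with a median of 15351 in KRT-19-negative nodules. Krt8, which hepatocytes also express, reached 14.06 on treated arrays 1 and 3, so this sum does not measure cholangiocytes alone. Of 12 macrophage markers (12 on the array) 4 fell and 3 rose. The complement gene C1qa differed by -0.97, without overlap, and Gpnmb by -0.81, and the scavenger receptor Cd163 by 0.65 and Vsig4 by 0.67. Their sum was 9064 to 11945 with a median of 9723 in T3 4 d nodules, and 10542 to 16353 with a median of 12031 in KRT-19-negative nodules. Of 11 stellate cell and fibroblast markers (14 on the array) 2 fell (collagen Col3a1 at -1.12 and Timp1 at -0.62) and 2 rose, among them decorin (Dcn) at 1.09. Their sums overlapped, at 6095 to 12332 in T3 4 d and 4579 to 10723 in KRT-19-negative nodules.

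All 6 endothelial markers that passed (7 on the array) were called, 4 lower and 2 higher. The call of Tek, an angiopoietin receptor gene and 1 of the 2 higher (0.40), was lost on leaving out any of 7 single arrays, and over the alternatives 1 to 2 were higher and 3 to 4 lower. Egfl7, a vascular growth factor, differed by -1.38 and von Willebrand factor (Vwf) by -0.85, while Lyve1, a receptor of sinusoidal endothelium, differed by 0.92. Tie1 differed by -0.63, and its other probe by 0.35. Their sum had a median of 1609 in both groups. Of 12 lymphocyte markers (13 on the array) 0 were called in limma, 2 had an unadjusted p under 0.05, and over the alternatives at most 1 was called in either direction. Of 2 neutrophil markers (10 on the array) 1 was called lower, S100a8 (adjusted p = 0.0466), and its call was lost on leaving out any of 12 single arrays. Of 7 red blood cell markers (8 on the array) 3 rose, the globins Hbb (0.80), Hba-a1 (0.61) and Hbb-b1 (0.90), with sums of 18841 to 27498 and a median of 24273 in T3 4 d nodules, and of 7305 to 19927 and a median of 16445 in KRT-19-negative nodules. In none of these lists was a tested marker below background on every array of either group. The part of these cell types in the differences above was not tested.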

How the data were processed

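Illumina 1-colour bead arrays measured RNA in 48 samples. The deposited table of unnormalised intensity values, per the file headers, also gives a detection p-value for each probe and array. These values still hold the background. BeadStudio 3.0.19.0 is named in the submitters' processing notes. The deposited value table holds intensities that were quantile normalised, as read from the values, and served as an alternative. For the authors' genome build and annotation, the entry is: not given in the sources used here.

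Intensities were background corrected (normexp on detection p-values), quantile normalised and log2 transformed (offset 16) with the neqc function (limma 3.58.1, R 4.3.3). A probe stayed in if its detection p-value fell under 0.05 on 8 or more arrays, and the brightest probe stood for a gene, which left 11558 features (8223 named genes, 3335 unnamed probes). Gene symbols came from the platform annotation, updated through gene IDs of RefSeq, and 13793 probes had 1 symbol and 8730 had none. Near-identical genes (globins, Acot, Cyp2 and Gsta families) may share probe signal.

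Group means over all 48 arrays were fitted with limma (lmFit, eBayes with a variance trend), and p-values were adjusted by Benjamini-Hochberg over all features. Features with an adjusted p under 0.05 count as called. The number of arrays limits the precision. On simulated data of this comparison (11558 features) 48% of changes of 0.5 log2, 96% of 1 and 100% of 2 or 3 were recovered, with 10 false calls. The simulated arrays had independent noise, the same spread in all groups and 50 changed features per size. The measured data had 5376 calls, unequal spreads and sets of like arrays, so these rates need not hold for them. Lower bounds on folds use the lowest signals above background.

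Genes named are the 8 largest called rises and falls, up to 4 called members of each list with the largest change and up to 2 that go against the list, and a set of followed genes. The genes Ndufa1, Slc16a6, Idh3a, Akr1b10, Nqo1, Gsta2, Pdk4, Fgf21, Atp1b1, Mcm6, Stmn1, Hmox1, Cbr1, Cyp2c12, Cyp2c13 and Mup4 were chosen after their values were seen. Members whose call was lost on leaving out 1 array are not described, apart from Akr1b10, Tek and S100a8. The members and lists were chosen with earlier results of these data known.

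The title numbers did not pair the samples: deviations of same-numbered arrays from their group means correlated at -0.31 to 0.15, and 2 of 10 correlations were over 0.1.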

Additional observations from a re-analysis of the deposited data

Results flagged for a closer look

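Single arrays stood apart from the other 9 of their group, by a gap to the nearest array that passed Dixon's criterion, in 22 of 290 groups of values examined. That criterion sets apart about 5% of groups of independent, normally distributed values. The groups here share arrays and include genes picked for their changes, so their count cannot be tested against that share. Most of these arrays were KRT-19-negative, and array 3 of that group recurred. It held the lowest Gstp1 (9.25, next 13.72), Abcc3 (7.39, next 10.78), Akr7a3 (10.31, next 12.92), Gsta3 (6.80, next 10.24) and Gsta2 (12.64, next 13.56) of its group, and the highest Cyp27a1 (13.44). Its position on the line, 1.36, was the highest of its group and lay within the range of control livers.

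The other cases were spread over arrays. Among T3 4 d nodules array 8 was low for Sc5d (12.25) and high for Slc25a15 (13.89), array 1 was low for Sds (11.07), array 2 low for Slc25a1 (11.50), array 7 low for Dnajb9 (10.03) and array 6 high for Ltc4s (5.45). Among KRT-19-negative nodules array 1 was high for Akr1b7 (5.75) and low for Cdh17 (6.06) and Mup4 (14.51), and array 2 was low for Rgn (11.61) and Thrsp (13.59) and high for Timp1 (9.86). Array 4 of that group was low for Hba-a1 (11.77) and Ndufa1 (10.79) and high for Slc2a2 (13.68), and array 5 was low for Cs (5.97). What set these arrays apart was not tested.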

How the results depend on the processing

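The count of called features (5376) stayed within 1.5 times of this under every alternative run: 5133 in a fit to the groups compared alone, 5372 with the deposited quantile normalised values, 5376 with cyclic loess, 4108 with median scaling, 5426 and 4716 with no filter and a strict filter on dim probes, 5363 with detected probes per array as a covariate, 5739 with array weights and 5377 without a variance trend. Low and high title numbers (1 to 5, 6 to 10) gave 5368 as a fixed block and 4414 as a random block. With the title number as a replicate block, whose numbers do not pair the samples, 5410 were called, 5241 of them shared, and 1 of 10 arrays correlated best with its own number. Chosen after seeing the data, arrays 1 to 5 alone gave 4082 and arrays 6 to 10 alone 4068, from groups of 5. Changes of 2-fold or more numbered 808, but 329 with the deposited values, where no background is subtracted and differences of dim probes shrink (Mmd2 2.79, Akr1b7 1.87, Sdr16c6 -2.49). Features with an interval within 2-fold numbered 9632, but 20156 with no filter and 6331 with the strict filter, which test 22067 and 8068 features. Leaving out single arrays gave 5169 to 5371 calls, 2653 to 2773 higher, 2496 to 2603 lower, 783 to 844 of 2-fold or more, 9519 to 9675 with an interval within 2-fold, and a mean position of 0.83 to 0.94.

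No result reversed. Leaving out 1 array lost the calls of Acly, Bdh1, Crp, Marco, Ncoa1, Reln, S100a8, Slc4a2, Tek and Akr1b10. Pck1 and Thrsp were lost with cyclic loess and with median scaling, F10, Med1, Pfkl and Slc25a1 with median scaling, Akr1b10 with cyclic loess, Defb1 in the fit to the groups compared alone, and Defb1, Hmox1 and Akr1b10 with the random block. Of the genes described, arrays 6 to 10 alone lost the calls of Akr1b10, Ccnd1, Cyp2c12, Cyp2c13, Cyp8b1, Defb1, Epcam, Hal, Med1, Ncor1, Rxrb, S100a8, Tek, Thrsp and Timp1. Arrays 1 to 5 alone lost those of Akr1b10, Cdh17, Defb1, Fgf21, Gpx2, Gsta1, Gstp1, Hba-a1, Hbb-b1, Hmox1, Krt8, Ltc4s, Prom1, S100a8, Sds, Slc10a1, Slc13a3, Slc25a1, Slc2a2, Tek and Vsig4. Without T3 4 d arrays 1 and 3 those of Akr1b10 and Cyp2c12 were lost. Hnf4a was called lower with array weights (-0.49), with arrays 6 to 10 alone (-0.72) and without T3 4 d arrays 1 and 3 (-0.52), Alb lower with arrays 1 to 5 alone (-0.36), and Mup4 lower with cyclic loess. The causes were not tested. Signal near background limits what can be read for dim probes, and Alb, Dio1, Thrsp and Cyp2c23 lie near the ceiling in some groups, where differences are compressed.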

Other observations

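Genes whose level in rat liver depends on sex set treated arrays 1 and 3 apart, though all rats are labelled male. These genes were chosen after their values were seen. Cyp2c12, the female-predominant cytochrome, stood at 15.03 and 15.13 on T3 4 d arrays 1 and 3 and at 10.97 to 14.17 on the other 8, and at 9.07 to 13.13 with a median of 11.07 in KRT-19-negative nodules. Its difference was 1.54 (adjusted p = 0.00443, limma), and 0.92 without arrays 1 and 3 (adjusted p = 0.0638). Cyp2c13, a male-predominant cytochrome, was lowest on the same arrays, at 11.55 and 11.53, and differed by -0.99 (adjusted p = 0.00173), and by -0.57 without them (adjusted p = 0.0317). Mup4, a major urinary protein gene of male liver, stood at 11.11 and 11.82 on these arrays, against 15.03 or more on the other 8 and 14.51 to 15.18 in KRT-19-negative nodules. It differed by -0.62 (interval -1.41 to 0.17, adjusted p = 0.2). In untreated KRT-19-positive nodules the median was 13.33 for Cyp2c12 and 14.08 for Mup4, and in control liver it was 9.41 and 15.03. What sets these arrays apart was not tested.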
